A study of Rattus norvegicus with 2 samples.

Results

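Rps27a, Ubb and the pseudogene Rps27a-ps1 were examined in the rat line RBL-2H3, leukemic basophil-like cells that carry the high-affinity IgE receptor and serve as a model of mast cells and basophils. They were picked by gene name from the table of all genes, and all 3 of 3 had a row among the 14913 distinct names of that table. Earlier results of these data were known when they were picked, so their read counts are given as a description and no test supports them. The data were poly(A)-selected RNA-seq read counts from 1 library of wild-type cells with no treatment and 1 library of wild-type cells incubated with IgE. The labels of the IgE library state no dose, no time and no antigen.

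Ubiquitin is a small protein that is attached to other proteins to mark them for the proteasome or for sorting to the lysosome, and activated IgE receptors are among the proteins that carry it. Cells make no free ubiquitin directly. Ubb encodes a chain of ubiquitin units joined head to tail, while Rps27a encodes 1 ubiquitin unit fused to a ribosomal protein, and proteases cut the units apart. Ubb is known as a gene that cells raise under stress. Rps27a is transcribed along with the other ribosomal protein genes. Rps27a-ps1 is annotated as a pseudogene, a copy of the Rps27a transcript elsewhere in the genome, so its row and the Rps27a row may compete for the same reads. How alike the sequences of the gene and this pseudogene are was not checked here.

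The libraries held 20917968 (untreated) and 26268330 (IgE) counted reads. Counts are given as deposited and as CPM, counts scaled to a common library size by TMM, and a log2 fold above 0 means higher in the IgE library. There was 1 library per condition, so a difference compares 2 libraries, without any replicate. The intervals given are exact 95% intervals of counting error alone. They treat reads as independent and are too narrow where several reads stem from 1 molecule. Expression of the line's lineage was clear in both libraries. The 7 basophil and mast cell markers, all counted, summed to 6410 and 6587 CPM, led by the transcription factor Gata2 at 2479 and 2303 CPM. Of 6 macrophage markers 3 were counted, summing to 5.48 and 3.21 CPM, and of 6 lymphocyte markers 3 were counted, summing to 15.8 and 16.8 CPM. The part of these other markers in the results below was not tested.

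Rps27a was one of the transcripts that differed most between the libraries among those with many reads. It had 6037 reads without treatment and 12138 with IgE, or 288 CPM (exact Poisson interval 280 to 295.0) and 464 CPM (455 to 472). The IgE library was thus the higher one, 1.61-fold, with a log2 fold of 0.69 (counting interval 0.64 to 0.73). By number of reads Rps27a stood at rank 649 of the 14466 names with any read when untreated and at rank 299 with IgE.

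Rps27a-ps1 went the other way. The pseudogene row had 2260 reads without treatment and 1603 with IgE, although the IgE library held more reads in all. On the scaled level this was 108 CPM (103 to 112) and 61.2 CPM (58.3 to 64.3), so that the untreated library was 1.76-fold higher, with a log2 fold of -0.81 (-0.91 to -0.72). In rank by reads it moved from 2376 to 3938. A lower level in bulk RNA can come from fewer cells with the transcript or from less of it per cell, and these cannot be told apart. The pseudogene row may also share reads with the Rps27a row, and the part of read assignment in its lower count was not tested.

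Ubb was level. It had 11633 untreated reads and 14247 IgE reads, 554 CPM (544 to 565) and 544 CPM (535 to 553), and its log2 fold was -0.03 (-0.06 to 0.01), an interval that includes no difference. Of the 3 members it was the one with the most reads in both libraries. Levels per transcript length cannot be set between genes here, because the table gives no lengths.

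**Figure D1:**
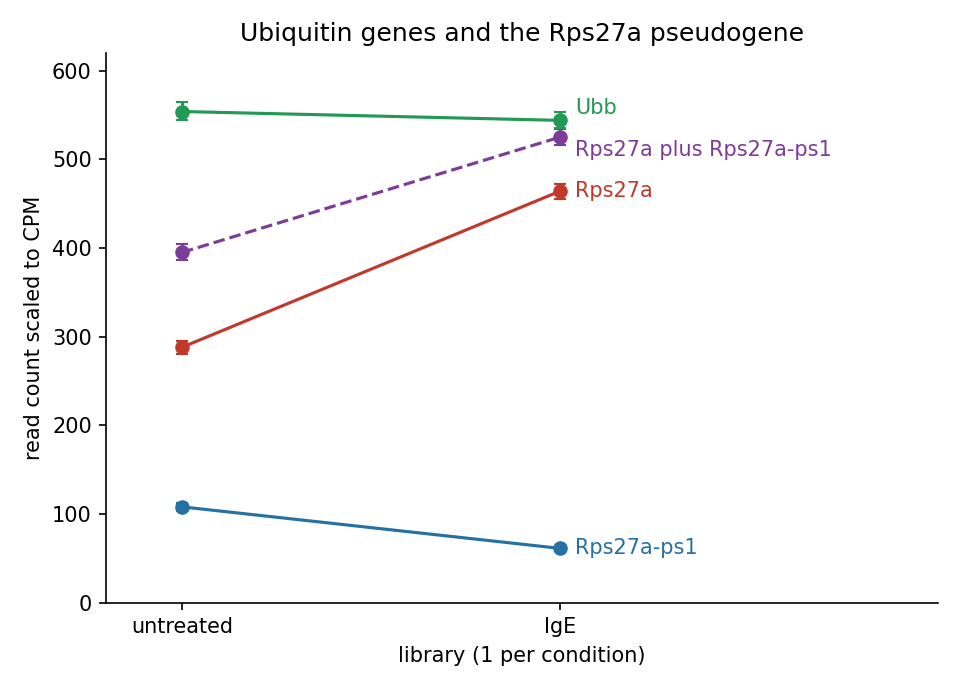
Read counts scaled to CPM (vertical axis) in the untreated and the IgE library (horizontal axis, 1 library each) for Rps27a, Rps27a-ps1, their sum (dashed) and Ubb, with exact 95% Poisson intervals as bars. Rps27a is at 288 and 464 CPM, its pseudogene at 108 and 61.2 CPM, and Ubb at 554 and 544 CPM.

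A fixed rule of size was used to describe differences, since no test across samples was possible. None of the 3 members was 2-fold apart, against 2.63% of the 12102 genes with 20 or more reads (1.33% higher and 1.3% lower). At 1.5-fold, Rps27a was higher and Rps27a-ps1 lower, a count of 2 of 3 members, against 7.19% of those genes in either direction (3.66% higher and 3.53% lower). Those shares came mostly from weakly counted genes. In the 5079 genes that had at least 2000 reads, the log2 folds had an SD of 0.14, none was 2-fold apart (0.0%), 8 were at least 1.5-fold higher (0.158%) and 1 was at least 1.5-fold lower (0.0197%).

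Rps27a-ps1 was that 1 lower gene, the lowest log2 fold of the 5079. The next lowest were AY172581.24, a name the table does not pair with a gene, at -0.51, and Cracd at -0.50. Rps27a had the second highest log2 fold of the 5079, below ENSRNOG00000062534 (695 and 1590 reads, 0.87), a feature with no symbol. Among the 8 were also Rpl37, Mt-nd3, Lif, Ppp1r14b and Rps27l. The lowest of the 8, Rps27l (0.59), lay so near the rule that 7 genes passed it with library totals or DESeq2 size factors in place of TMM, or with a prior of 5 counts. The parent and its pseudogene therefore stood near opposite ends of the well counted genes. Because the members were picked from this same contrast, these places describe them and test nothing.

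**Figure D2:**
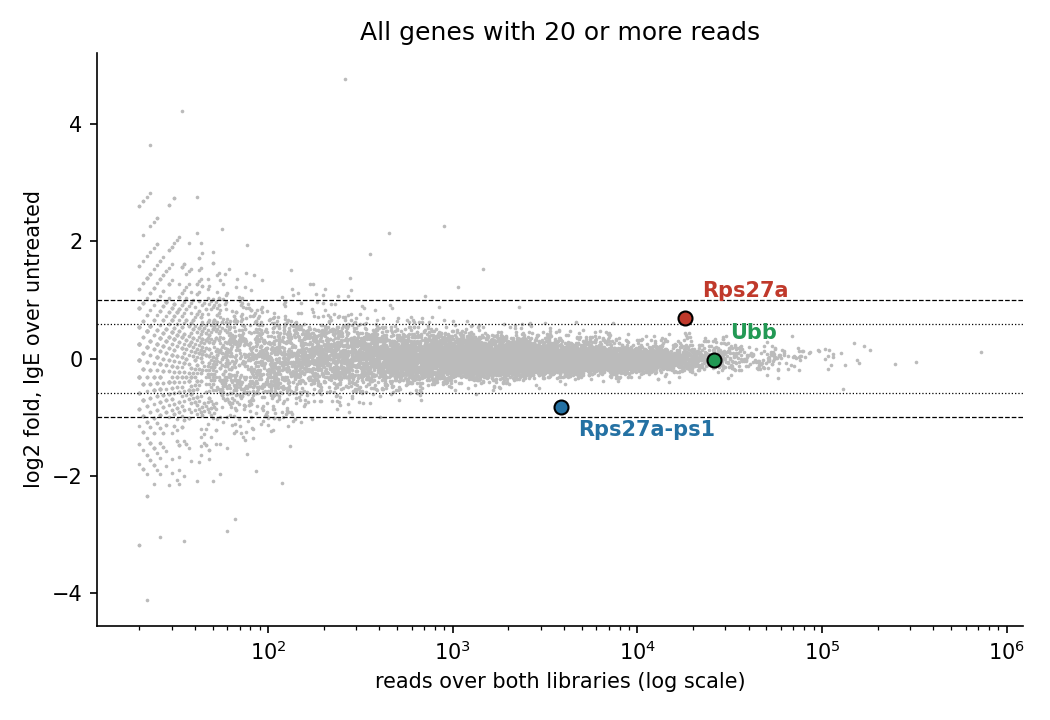
Log2 fold of the IgE over the untreated library (vertical axis) against reads over both libraries (horizontal axis, log scale) for the 12102 genes with 20 or more reads, in grey, with Rps27a, Rps27a-ps1 and Ubb in colour. Dashed lines mark 2-fold and dotted lines 1.5-fold; Rps27a-ps1 at -0.81 is below all other genes with 2000 or more reads, and Ubb at -0.03 lies in the centre.

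Because the Rps27a and Rps27a-ps1 rows may share reads, their sum and their split were examined. The sum does not depend on how reads counted once on either row were divided between them, but reads left out, counted on both rows or placed on other copies would alter it. It was 8297 reads untreated and 13741 with IgE, 395 and 525 CPM, with a log2 fold of 0.41 (0.37 to 0.45), so the IgE library was 1.33-fold higher. The sum was thus higher with IgE, by less than the Rps27a row alone, and was under 1.5-fold. Among the 5079 well counted genes, 38 had a higher log2 fold than the sum.

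The split differed as well. Rps27a-ps1 took 27.2% of the summed reads without treatment (exact Clopper-Pearson interval 26.3 to 28.2) and 11.7% with IgE (11.1 to 12.2). There were 2.67 Rps27a reads for each pseudogene read without treatment and 7.57 with IgE. At the untreated share, the IgE library would have held 3743 pseudogene reads, against the 1603 counted. In CPM, the pseudogene row was lower by 46.5 and the Rps27a row higher by 176, so the pseudogene's difference was 26.4% of the size of the parent's. The sum of both rows, which moving reads between them does not alter, was higher by 129 CPM. How the counting treated reads that match both places is not given in the sources used here, and the part of read assignment in this difference was not tested.

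Splits of other pseudogenes with a named parent are set beside that of Rps27a-ps1 as a description, not a test. How alike these copies and their parents are was not checked. In 4 pairs both rows had 100 or more reads. Rpl32-ps3 took 7.32% of the reads summed with Rpl32 when untreated and 8.05% with IgE, with intervals of 6.67 to 8.01 and 7.52 to 8.59. Ybx1-ps3 took 10.7% (10.3 to 11.1) and 11.9% (11.4 to 12.3) of the reads summed with Ybx1, which encodes a DNA- and RNA-binding protein. Zfp780b-ps1 took 76.3% and 76.7% with the zinc-finger gene Zfp780b. These 3 shares differed by little between the libraries, though the intervals of Ybx1-ps3 did not overlap and its share was higher with IgE. The share of Rps27a-ps1 in the untreated library was 15.6 percentage points above that with IgE.

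The directions within the pairs also differed. Rpl32-ps3 (440 and 812 reads, log2 fold 0.56) and Rpl32 (5572 and 9280 reads, 0.42) were both higher with IgE. Ybx1-ps3 (2026 and 2498 reads) was level at -0.02 and Ybx1 (16907 and 18542 reads) was at -0.19. Zfp780b-ps1 (350 and 468 reads) and Zfp780b (109 and 142 reads) were at 0.10 and 0.06. Only in the Rps27a pair did both counting intervals exclude 0 on opposite sides, among the 10 counted pairs of a parent and a pseudogene.

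**Figure D3:**
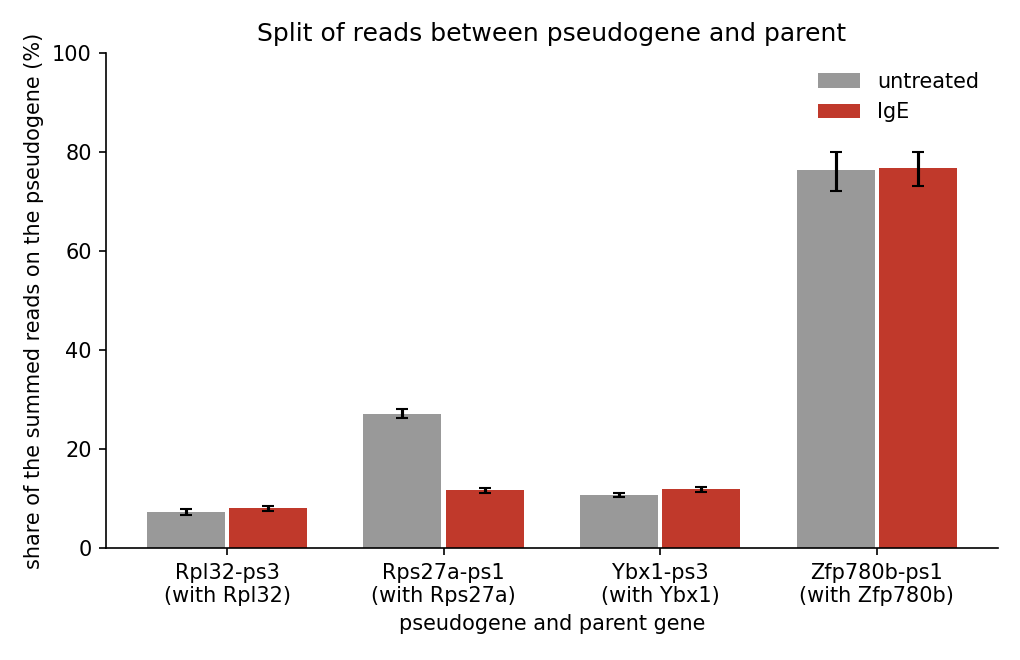
Share of the summed reads of a pseudogene and its parent that was counted on the pseudogene (vertical axis, percent) for the 4 pairs with 100 or more reads on each row, in the untreated (grey) and IgE (red) library, with exact Clopper-Pearson 95% intervals. The share of Rps27a-ps1 is 27.2% and 11.7%. The other 3 pairs differ by little between the libraries, though the intervals of Ybx1-ps3 do not overlap.

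More copies are annotated than were counted. The RefSeq gene table (assembly GRCr8, used for names only since the submitters' processing notes name rn6) lists 29 Rps27a pseudogenes. By symbol or older name 4 of them matched a row and 25 did not. Beside Rps27a-ps1, these were Rps27a-ps2 with 2 reads untreated and 0 with IgE, Rps27a-ps6 with 2 and 1, and Rps27a-ps28 with 0 and 0. Nearly all reads counted on a matched Rps27a pseudogene were thus on Rps27a-ps1.

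The balance between the fusion gene and the polyubiquitin gene differed between the libraries. Of the reads on Rps27a and Ubb together, 17670 untreated and 26385 with IgE, Ubb took 65.8% (exact Clopper-Pearson interval 65.1 to 66.5) and 54.0% (53.4 to 54.6). Rps27a took the other 34.2% and 46.0%. Ubb remained the larger share in both libraries. The sum of both genes was 842 and 1008 CPM, with a log2 fold of 0.26 (0.23 to 0.29). With the Rps27a-ps1 reads added to those of Rps27a, Ubb took 58.4% (57.7 to 59.1) of 19930 reads and 50.9% (50.3 to 51.5) of 27988 reads, and the log2 fold of the 3 rows together was 0.17 (0.14 to 0.20). The share of Ubb was thus lower with IgE on either reckoning, by less when the pseudogene row was included. These are shares of reads, not of ubiquitin units, since Ubb encodes several units and Rps27a a single one.

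Of 4919 genes searched with a symbol and 2000 or more reads, those nearest to Rps27a in log2 fold were Rpl37, a ribosomal protein gene (1091 and 2083 reads, log2 fold 0.61), Mt-nd3, which encodes a mitochondrial complex I subunit (2528 and 4811 reads, 0.61), and Lif, the gene of a cytokine (906 and 1721 reads, 0.61). For Rps27a-ps1 no gene was close: the nearest were Cracd (1554 and 1371 reads, -0.50), Apc2 (1479 and 1355 reads, -0.45) and the xylosyltransferase gene Xylt2 (1048 and 967 reads, -0.44). For Ubb they were the small GTPase gene Rhob (1807 and 2213 reads), Calu (12734 and 15595 reads), which encodes a calcium-binding protein of the secretory pathway, and Hbs1l (4674 and 5724 reads), all at -0.03. Likeness was measured as the difference in log2 fold over 2 libraries, so many genes near 0 are equally like Ubb.

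Promoter windows of the members are shown to set the level gene beside the one that was higher with IgE. The RefSeq promoter table (build GRCr8) held Rps27a and Ubb and not Rps27a-ps1, with 2 annotated starts for each gene, of which the window of the more upstream start is printed for both. Each sequence runs 5′ to 3′ on the gene's strand from 250 bases before an annotated start, the first at chr14:107488922-107489191 on the minus strand and the second at chr10:47746673-47746942 on the plus strand. Capitals mark a GC box (GGGCGG) in Rps27a, and a CCAAT box, read on the other strand, in Ubb.
Rps27a: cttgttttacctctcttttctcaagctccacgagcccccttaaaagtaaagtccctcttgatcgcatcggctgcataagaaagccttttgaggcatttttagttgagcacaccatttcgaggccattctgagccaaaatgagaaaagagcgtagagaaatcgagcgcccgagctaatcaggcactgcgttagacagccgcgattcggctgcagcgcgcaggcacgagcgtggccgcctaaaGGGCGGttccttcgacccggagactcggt
Ubb: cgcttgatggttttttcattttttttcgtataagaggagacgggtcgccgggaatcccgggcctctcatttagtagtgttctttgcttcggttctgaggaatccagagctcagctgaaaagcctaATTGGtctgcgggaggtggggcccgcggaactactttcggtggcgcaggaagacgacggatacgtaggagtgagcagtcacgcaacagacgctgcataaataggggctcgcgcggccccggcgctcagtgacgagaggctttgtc

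The GC box stood at positions -9 to -4 from the printed Rps27a start, and the window of the second Ubb start held one as well, at -199 to -194, so that it was not a feature of Rps27a alone. The CCAAT box of Ubb stood at -125 to -121 from the printed start and was not in its second window. The longest run of C and T reaching within 20 bases of the start was 7 bases in the printed Rps27a window, at positions -3 to 4, and 30.1% of the 33469 windows in the table held a run as long. In the window of the second Rps27a start it was 12 bases, at positions -23 to -12 and thus before that start, with 5.1% of windows holding one as long, and in both Ubb windows it was 4 bases (81.8%). A GC box stood in 33.1% of all windows and a CCAAT box in 37.5%, so both are common. The heat shock element letters GAANNTTC (8.59% of all windows) and TTCNNGAA (8.77%), TATAAA (14.2%), the AP-1 letters TGANTCA (7.33%), the CRE letters TGACGTCA (1.83%) and the Egr letters GCGNGGGCG (4.98%), searched on both strands, were in none of the 4 windows. These are matches of exact letters in short windows, so a variant form, such as cataaata in the printed Ubb sequence, was not counted. Nothing was measured on them here.

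The ribosomal protein genes gave the setting for Rps27a, as its other product is a ribosomal protein. Of 78 listed genes without Rps27a, 70 were counted, and 69 were above 0 and 1 below, with a median log2 fold of 0.29 against 0.00 over all 12102 genes. At 1.5-fold, 2 of the 70 were higher and 0 lower. This compares with 3.66% higher and 3.53% lower of the 12102 genes, and 0.158% and 0.0197% of those with 2000 or more reads. Rps27l fell under the rule with library totals, DESeq2 size factors or a prior of 5 counts, leaving 1 higher. The highest were Rpl37 (0.61) and Rps27l (820 and 1537 reads, 0.59), and the lowest were Rpl38 (93 and 111 reads, -0.06) and Rps2 (17534 and 22763 reads, 0.06). The Rps27a row lay above all 70, by 0.40 over their median. The sum of Rps27a and its pseudogene lay above 60 and below 10 of them, by 0.12 over the median. Rps27a-ps1 was below all 70. Some of these genes, such as Rpl32 and Rpl12, have a pseudogene row as well, so their counts may also be uncertain. How alike those copies are was not checked.

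Fau is the closest counted relative of Rps27a in design, a fusion of a ubiquitin-like protein and a ribosomal protein. It had 2616 and 4435 reads and a log2 fold of 0.44 (0.37 to 0.51), near that of the summed Rps27a rows. Among all 13 counted ubiquitin-like genes of 16 listed, 10 were above 0 and 3 below, and the median was 0.09. None was 1.5-fold apart, against 7.19% of the 12102 genes. Fau and Nedd8, the activator of cullin ligases (359 and 541 reads, 0.27), were the highest, and the autophagy genes Gabarapl1 (-0.06) and Map1lc3b (-0.06) the lowest.

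The enzymes that use ubiquitin were closer to level than Rps27a. Of 25 genes for E1 and E2 enzymes, which activate ubiquitin and pass it on, all were counted, 15 were above 0 and 10 below. Their median was 0.08. None was 1.5-fold apart, against 7.19% of the 12102 genes and 0.177% of the 5079 with 2000 or more reads. A short list with none is thus not unusual. Ube2a (687 and 1130 reads, 0.40) and Cdc34 (631 and 985 reads, 0.32) were the highest, and Ube2e2 (212 and 218 reads, -0.28) and Ube2v1 (2712 and 3062 reads, -0.14) the lowest. Of 7 ubiquitin ligases that act on receptors, signalling adaptors or misfolded proteins, 6 were counted and none was 1.5-fold apart. The ligase list had a median of -0.07, with Traf6 (0.01) and Cbl (1826 and 2239 reads, -0.03), a ligase for the IgE receptor, the highest. The chaperone-linked ligase Stub1 (708 and 695 reads, -0.35) and Itch (-0.13) were the lowest.

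Deubiquitinases, the proteases that free ubiquitin from precursors and from tagged proteins, had a median of 0.00 over 15 counted genes of 16 listed, 7 of them above 0 and 8 below. The 1 gene beyond 1.5-fold, against 7.19% of the 12102 genes, was Usp2, lower with IgE on 60 and 49 reads. Its log2 fold was -0.61 (counting interval -1.19 to -0.04), and -0.56, under the rule, with a prior of 5 counts. Otub1 (75 and 83 reads, -0.17) was next. The highest were the proteasome-bound Usp14 (3509 and 4919 reads, 0.17) and Psmd14 (3354 and 4647 reads, 0.15). Of 17 proteins that bind ubiquitin for delivery to proteasomes, autophagosomes or endosomes, all were counted and none was 1.5-fold apart, 6 were above 0 and 11 below, and the median was -0.02. Tsg101 (0.14) and Stam (0.14), both of endosomal sorting, were the highest, and the autophagy receptors Optn (275 and 274 reads, -0.32) and Nbr1 (-0.17) the lowest.

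Heat shock genes were listed because Ubb is known to be raised with them under proteotoxic stress. Of 15 listed, 12 had 20 or more reads, 8 were above 0 and 4 below, and the median was 0.04. None was 1.5-fold apart, against 7.19% of the 12102 genes. The mitochondrial chaperonins Hspe1 (2530 and 3988 reads, 0.34) and Hspd1 (13119 and 19035 reads, 0.22) were the highest, and the co-chaperone Bag3 (1133 and 1268 reads, -0.16) and Hsp90ab1 (-0.08) the lowest. Ubb, at -0.03, lay within the range of this list.

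**Figure D4:**
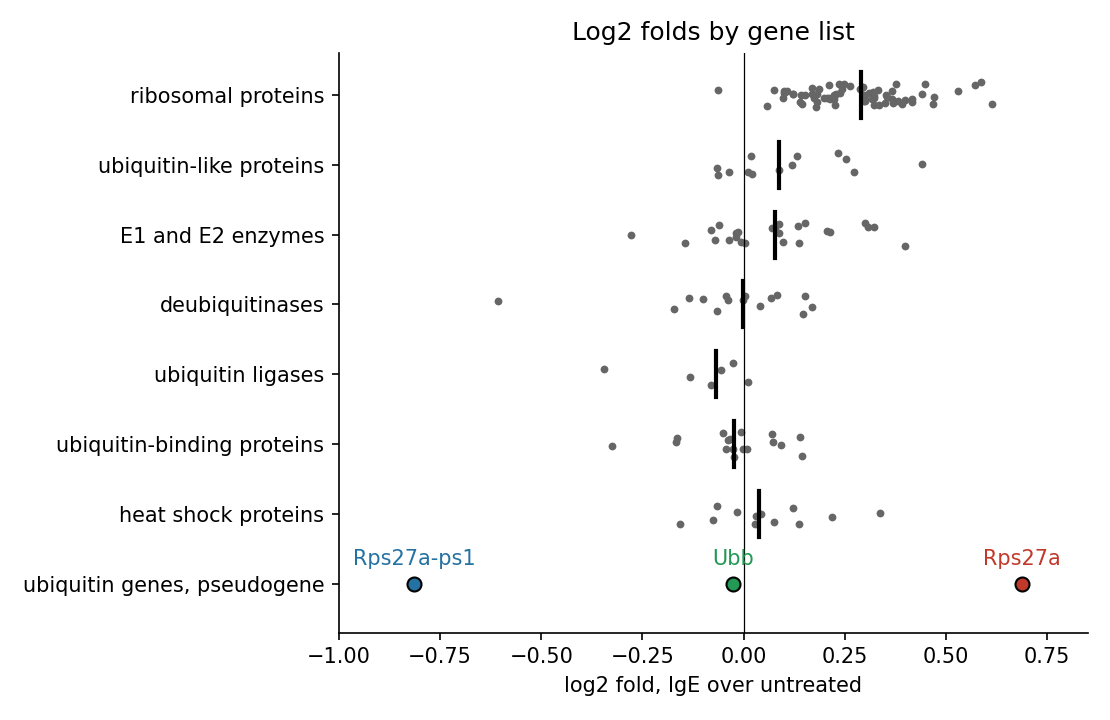
Log2 fold of the IgE over the untreated library (horizontal axis) for the genes of each list (grey points, spread vertically for display only, with the median as a bar) and, in the lowest row, for Rps27a, Rps27a-ps1 and Ubb. Rps27a at 0.69 lies above every ribosomal protein gene shown, whose median is 0.29, and Rps27a-ps1 at -0.81 lies below every gene shown.

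In the authors' deposited table, Rps27a-ps1 had a log2 fold change of -0.824 and an adjusted p of 0.0375, one of 41 names (0.275% of 14913) under 0.05. Rps27a had an adjusted p of 0.177 and Ubb of 1.0 in the authors' deposited table. None of these 3 was in the authors' deposited table of 451 selected names, in which the smallest absolute log2 fold change was 1.003. Those p-values were recomputed from the counts by assuming a coefficient of variation of 0.1 between replicates, and no replicate was there to measure it.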

How the data were processed

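RNA-seq was done on 1 untreated and 1 IgE library. The authors deposited unnormalized read counts for each gene name. Beside them stand the authors' log2 fold change and p-values, raw and adjusted, per the file headers. Per the submitters' processing notes, HISAT2 2.1.0, fastp 0.23.0 and DESeq2 1.18.1 were used with rn6. How reads were counted, with which strand setting and with what rule for multiple matches, is not given in the sources used here. Of 16990 rows, 2077 repeated a name with identical values, and each name was kept once. The deposited statistics were recomputed to within 4.67e-08 by edgeR's exact test with library totals and a fixed dispersion of 0.01.

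TMM scaling factors over all names came from edgeR 4.0.16 (R 4.3.3). CPM were calculated with them, and log2 folds with them and a prior of 0.5 counts, for genes whose reads summed to 20 or more. Counting intervals are exact Clopper-Pearson 95% intervals of the read ratio. A count of 3 reads, taken as the floor, is 0.143 and 0.115 CPM. No test across samples was possible. The calculation was tested on simulated data. Members and lists were chosen with earlier results of these data known. Named genes were the members, the 2 highest and 2 lowest of each list, pseudogene pairs with 100 or more reads on each row, and the 3 genes with 2000 or more reads nearest each member in log2 fold. Not all genes meeting these criteria are reported. Other genes were named after their values were seen, among them AY172581.24, ENSRNOG00000062534, Ppp1r14b and the weakly counted copies. Alternatives were library totals, DESeq2 1.42.0 size factors, a prior of 5 counts, no minimum or 100 reads, a 1.5-fold rule and keeping repeated rows.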

Additional observations from a re-analysis of the deposited data

How the results depend on the processing

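The log2 folds of the members moved little under the alternative scalings and the larger prior. The read minimum cannot move the fold of a gene here, since the scaling was taken over all names. Rps27a ranged from 0.68 to 0.69, Rps27a-ps1 from -0.82 to -0.81, Ubb from -0.04 to -0.03 and the summed Rps27a rows from 0.40 to 0.41, and all of these stayed within the counting intervals. The 210 alternative values of the other named genes did so too, but those under other minimums could not differ. Library totals, which lower every fold alike, gave a median of 0.0288 for the heat shock list and 0.2808 for the ribosomal list. The number of genes at least 2-fold apart, 161 higher and 157 lower, depended on weakly counted genes: it was 104 and 99 with a prior of 5 counts, 855 and 875 with no minimum, 21 and 15 with a minimum of 100 reads, and 443 and 427 under a 1.5-fold rule. The share of reads on the pseudogene is taken within a library, so no scaling moves it. No paired analysis was possible because there is only 1 library per condition, which also means that none can be left out in turn. At these depths counting error is small for the members, and the variation between cultures was not measured.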

Other observations

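The pairs of a pseudogene and its parent with fewer reads gave little to set beside Rps27a-ps1. Of 15 names ending in -ps, 12 had the parent as a row. Beside the 4 pairs with 100 or more reads on each row, 6 pairs had at most 37 pseudogene reads in a library, and the pseudogene took at most 7.55% of the summed reads. In 2 further pairs the pseudogene had 0 reads. Signs differed between parent and pseudogene in 4 of the 10 counted pairs, of which 1, the Rps27a pair, had both counting intervals clear of 0. Among these weak pairs, Psme1-ps1 had 14 and 8 reads against 1301 and 1838 for Psme1, a proteasome activator subunit, and Rpl12-ps1 had 18 and 37 reads against 11518 and 15870 for Rpl12.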
